A study of Rattus norvegicus with 17 samples.

Results

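Tgfb1, Inhba and Ltbp2 were examined as the TGF-beta ligand, activin ligand and latent TGF-beta binding protein genes of a rat model of kidney fibrosis. They were taken by symbol, and are 3 of the 23487 genes in the count tables. All 3 passed the filter on low counts, which left 15438 genes tested. Kidney RNA was sequenced in 12 libraries of SNx rats and 5 of control rats, 1 per sample. The methods describe depletion of ribosomal RNA with strand retained, whereas the labels name polyA RNA. In the SNx rats (sub-total nephrectomy) part of the right kidney was resected and the left kidney was removed later. The controls are labelled NoOp, whereas the methods of the study call the controls of this experiment sham. All rats were male Wistar Han by the methods, with no genetic change, and no age is given. SNx rats were meant to be taken at a set rise of serum creatinine or proteinuria. By the study's account only a minority of the rats operated on in this experiment reached it, and the labels do not tell these apart. The day of termination also varied between rats.

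TGF-beta is secreted as a latent complex, in which the mature cytokine is held by its own propeptide and anchored to the matrix through latent TGF-beta binding proteins. Once released by integrins or proteases, it signals through serine/threonine kinase receptors and SMAD proteins, and in the kidney it is the best known inducer of matrix deposition. Inhba encodes the inhibin beta A subunit, whose homodimer is activin A, a ligand that uses its own receptors but the same receptor-regulated SMADs. Ltbp2 belongs to the latent TGF-beta binding protein family but does not itself bind latent TGF-beta, and sits on the microfibrils of elastic fibres.

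All 3 genes were upregulated in SNx kidneys. Ltbp2 rose 15.9-fold, Inhba 12.3-fold and Tgfb1 3.06-fold, and for each gene every SNx library lay above every NoOp library. Of all tested genes, 30.3% passed the same test as higher in SNx and 27.7% as lower, and 13.5% had every SNx library above every NoOp library. The 3 genes come from the 2003 tested genes with a symbol, which are largely genes the study called changed. Among these, 53.4% were higher in SNx and 41.9% had every SNx library above every NoOp library. Among the SNx kidneys the levels of all 3 genes were highest in SNx 1 and SNx 5, the kidneys with the least Slc3a1, a proximal tubule transporter gene. Between the 3 genes and with Col3a1 and Slc3a1, 9 relations were tested. Those of Tgfb1 with Inhba and of Ltbp2 with Slc3a1 passed without SNx 1, and the other 7 did not. In that setting 0.117% of tested genes went as closely with Inhba as Tgfb1 did, but 14.4% as closely with Slc3a1 as Ltbp2. Ltbp2 with Slc3a1 missed the threshold once SNx 5 was left out as well (adjusted permutation p = 0.0610).

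The stretches before the transcription starts are shown because all 3 genes were upregulated in SNx, so that their promoters can be set side by side. Each is 250 bases long and ends at the base before the start of 1 RefSeq transcript, in the GRCr8 assembly, written 5′ to 3′ on the strand of the gene. This is not the rn6 build to which the deposited counts refer. Capitals mark matches to the 6 motifs searched on both strands, which were the SMAD box CAGAC, the SMAD palindrome GTCTAGAC, the AP-1 site TGANTCA, the cyclic AMP response element TGACGTCA, the Sp1 site GGGCGG and the TATA box TATAAA. The palindrome and the SMAD box share the letters AGAC.
Tgfb1, chr1:90324062-90324311, plus strand: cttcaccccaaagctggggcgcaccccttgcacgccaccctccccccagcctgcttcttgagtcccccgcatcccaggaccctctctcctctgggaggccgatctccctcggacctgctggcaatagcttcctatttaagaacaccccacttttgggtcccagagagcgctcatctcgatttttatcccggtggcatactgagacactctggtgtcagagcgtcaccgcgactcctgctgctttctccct
Inhba, chr17:53804509-53804758, minus strand: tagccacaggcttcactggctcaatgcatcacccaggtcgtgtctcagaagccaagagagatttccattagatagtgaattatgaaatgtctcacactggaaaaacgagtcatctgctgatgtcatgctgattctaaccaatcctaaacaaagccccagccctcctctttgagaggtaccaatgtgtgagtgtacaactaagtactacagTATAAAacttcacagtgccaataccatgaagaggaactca
Ltbp2, chr6:110257299-110257548, minus strand: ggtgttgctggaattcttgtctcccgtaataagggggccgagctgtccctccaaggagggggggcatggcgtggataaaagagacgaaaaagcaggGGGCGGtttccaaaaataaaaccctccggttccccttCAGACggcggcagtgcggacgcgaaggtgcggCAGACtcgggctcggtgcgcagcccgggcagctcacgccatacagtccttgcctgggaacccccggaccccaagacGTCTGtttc

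The 3 stretches had little in common. That of Ltbp2 held 3 SMAD boxes, which began 117, 85 and 9 bases before the start with the last on the opposite strand, and a Sp1 site 154 bases before it. That of Inhba held a TATA box 40 bases before the start, and none of the 6 motifs was found before Tgfb1. Of 33469 rat promoter stretches of the same length, 42.9% held a SMAD box, 30.5% a Sp1 site, 12.9% a TATA box, 6.34% an AP-1 site, 1.59% a cyclic AMP response element and 0.173% the palindrome. These shares count stretches with any match. How many held 3 SMAD boxes, as that of Ltbp2 did, was not counted. GC content was 60.0% for Tgfb1, 61.6% for Ltbp2 and 43.6% for Inhba, with a median of 51.2% over all stretches. The annotated spans of Inhba and Ltbp2 extend further upstream than these starts, so that other transcripts of both genes may start elsewhere. A match of letters shows neither binding nor its absence.

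SNx libraries held 19210434 to 30784070 counts and NoOp libraries 30454170 to 43876369, so the controls were sequenced more deeply. Levels are given as log2 CPM, the log2 of counts scaled to a common library size (CPM) with TMM factors and a prior count of 2, and standard deviations are over libraries. Expression of 8949 genes (58.0%) differed at FDR < 0.05. The median log2 fold change over all tested genes was 0.02, and 0.23 when libraries were scaled by their totals alone. Cell type markers could be looked up only where the study's supplementary table gives a symbol, and that table lists largely genes called changed there. Of the 2003 tested genes with a symbol, 53.4% were higher in SNx and 40.5% lower, so the directions of the markers are given as a description. All 10 named proximal tubule genes (of 16 listed) were downregulated, and their summed level was 1557 to 15487 CPM in SNx against 20444 to 25318 CPM in NoOp. The 3 named fibroblast genes of 12 were upregulated (849 to 7036 against 198 to 230 CPM), as were the 8 named macrophage genes of 12 (211 to 637 against 88.8 to 129 CPM) and the 5 named genes of 9 of injured tubule (3288 to 17054 against 550 to 805 CPM). The 2 named T cell genes and 1 B cell gene also rose, and 1 gene each of collecting duct, podocyte and endothelium fell. None of these markers was at 0 in any library, and 2 of the fibroblast genes, Col1a1 and Postn, are also among the target genes described below. One library, SNx 1, stood at the end of many of these ranges, with the lowest proximal tubule sum and the highest fibroblast and macrophage sums. Without SNx 1 the summed levels in SNx began at 3280 CPM for proximal tubule and reached 2061 CPM for fibroblast and 512 CPM for macrophage genes. Results are therefore also given without it. In bulk tissue, more cells of a type and more RNA per cell cannot be told apart, and the part of these shifts in the results below was not tested.

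Tgfb1 (ENSRNOG00000020652, chromosome 1) encodes TGF-beta 1, the main profibrotic cytokine of the family. In the NoOp libraries its level was 4.89, 4.85, 4.54, 4.92 and 4.67 log2 CPM. Over the SNx libraries the lowest level was 5.80 (SNx 11), the median 6.35 and the highest 7.07 log2 CPM (SNx 1). The groups were therefore apart, by 0.88 between the lowest SNx and the highest NoOp library, and SNx 1 and SNx 5 (6.90) stood above the other SNx kidneys. Group means were 6.34 ± 0.37 log2 CPM (SD, n = 12) in SNx and 4.77 ± 0.16 (SD, n = 5) in NoOp. The log2 fold change was 1.61 (SE 0.18, adjusted p = 3.29e-06, edgeR quasi-likelihood test with Benjamini-Hochberg adjustment over all tested genes), and 1.53 without SNx 1. A larger log2 fold change was found for 1203 of the tested genes (7.79%). Counts were well above the filter, with 727 to 1166 counts in NoOp and 1190 to 2827 in SNx.

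Inhba (ENSRNOG00000014320, chromosome 17) was the member with the fewest counts, at 17 to 46 per NoOp library and 95 to 746 per SNx library. Its level in NoOp was −0.05, −0.31, 0.55, −0.32 and −0.58 log2 CPM. In SNx the lowest level was 2.17 (SNx 11), the median 3.16 and the highest 5.16 log2 CPM (SNx 1). No SNx library came within 1.62 of the highest NoOp library, and SNx 1 lay 1.41 above the next SNx kidney. Means were 3.20 ± 0.77 log2 CPM (SD, n = 12) and −0.14 ± 0.43 (SD, n = 5). The log2 fold change was 3.62 (SE 0.49, adjusted p = 1.74e-05, edgeR), and 3.28 without SNx 1. It was exceeded by 163 genes (1.06%). Among the 3 genes Inhba varied most between SNx kidneys, with a 7.94-fold range, and 9.95% of tested genes had a larger standard deviation in SNx. The size of this range rested on SNx 1. Without it the range was 2.99-fold for Inhba, 2.64-fold for Ltbp2 and 2.14-fold for Tgfb1, so Inhba still varied most, by a smaller margin.

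Ltbp2 (ENSRNOG00000012094, chromosome 6) was at 4.11, 3.46, 4.41, 4.26 and 3.95 log2 CPM in the NoOp libraries. Its lowest SNx level was 7.0 (SNx 9), its median 8.06 and its highest 9.19 log2 CPM (SNx 1). The gap of 2.59 between the groups was the widest of the 3 genes, and SNx 4, SNx 9 and SNx 11 formed the lower end of the SNx kidneys. Means were 7.95 ± 0.58 log2 CPM (SD, n = 12) in SNx and 4.04 ± 0.37 (SD, n = 5) in NoOp. The log2 fold change was 3.99 (SE 0.34, adjusted p = 2.52e-07, edgeR), and 3.83 without SNx 1. A larger one was found for 117 genes (0.758%). Its counts were 315 to 737 in NoOp and 3153 to 12154 in SNx. Ltbp2 is also in the study's own list of genes changed in these rats, so its direction here is not independent of how its symbol was obtained.

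**Figure D1:**
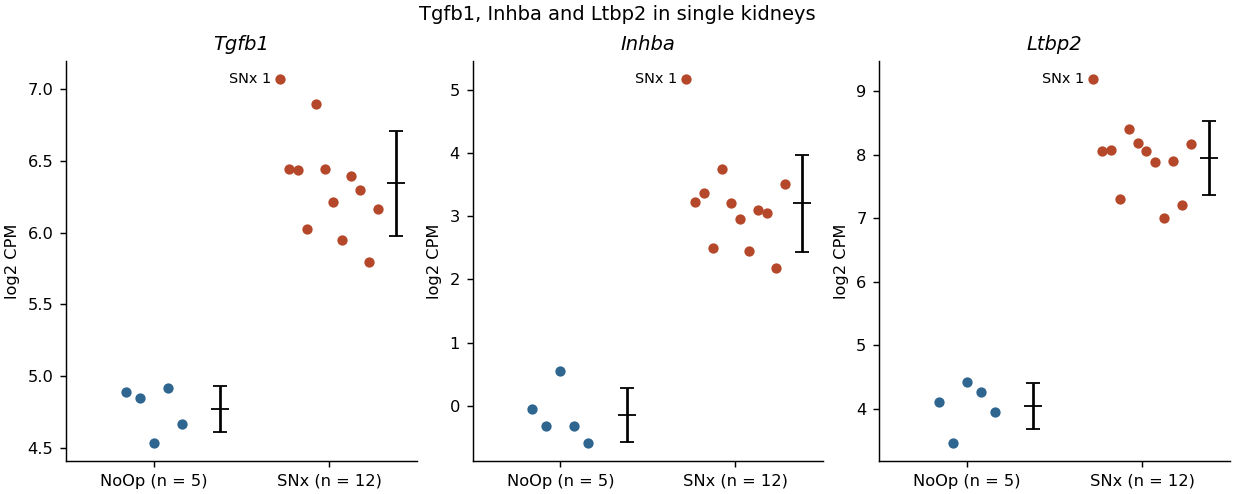
Level of Tgfb1, Inhba and Ltbp2 (log2 CPM, vertical axis, scaled for each gene) in each of 5 NoOp and 12 SNx libraries, with mean and SD beside the points. For each gene all SNx libraries lie above all NoOp libraries, and SNx 1 is the highest.

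The SNx libraries fall into 2 ranges of library number, 6 in each, and the NoOp libraries all carry numbers of the lower range. The labels do not say what the numbers stand for. With the lower range alone against NoOp, the log2 fold change was 1.82 for Tgfb1, 3.99 for Inhba and 4.24 for Ltbp2. With the upper range alone it was 1.38, 3.12 and 3.69. All 6 values passed the threshold, and all were lower in the upper range, although the difference between the ranges was not tested.

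Whether the 3 genes rose to the same extent was tested within libraries, by comparing the difference in log2 CPM between a pair of genes in SNx and NoOp kidneys. Gene length and library scaling cancel in such a comparison. The prior count does not, and it weighs most on Inhba, which has the fewest counts. For the level of one gene relative to another in a single group, gene length does not cancel, and that level is not interpreted. Ltbp2 less Tgfb1 was −0.73 ± 0.45 (SD, n = 5) in NoOp and 1.60 ± 0.40 (SD, n = 12) in SNx. Thus Ltbp2 rose by 2.34 on the log2 scale more than Tgfb1, a 5.06-fold larger change (adjusted p = 0.000242 over the 3 pairs, two-sided exact permutation test), and the 2 groups did not overlap. Inhba less Tgfb1 was −4.92 ± 0.54 in NoOp and −3.14 ± 0.46 in SNx, so that Inhba rose by 1.77 more than Tgfb1, or 3.42-fold (adjusted p = 0.000242, exact permutation test). For both pairs the unadjusted exact p was 0.000162, the smallest that this design can give. The pair of Ltbp2 and Inhba was less clear. Ltbp2 less Inhba ranged from 3.78 to 4.58 in NoOp and from 3.89 to 5.44 in SNx, with the groups overlapping, and the change was larger for Ltbp2 by 0.56 (adjusted p = 0.0217, exact permutation test). It no longer passed without NoOp 2 (0.46, exact permutation p = 0.0703) or without NoOp 3 (0.48, exact permutation p = 0.0626). With a prior count of 0.5 it also missed the threshold (0.48, exact permutation p = 0.0503), while Inhba then rose by 1.86 more than Tgfb1.

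**Figure D2:**
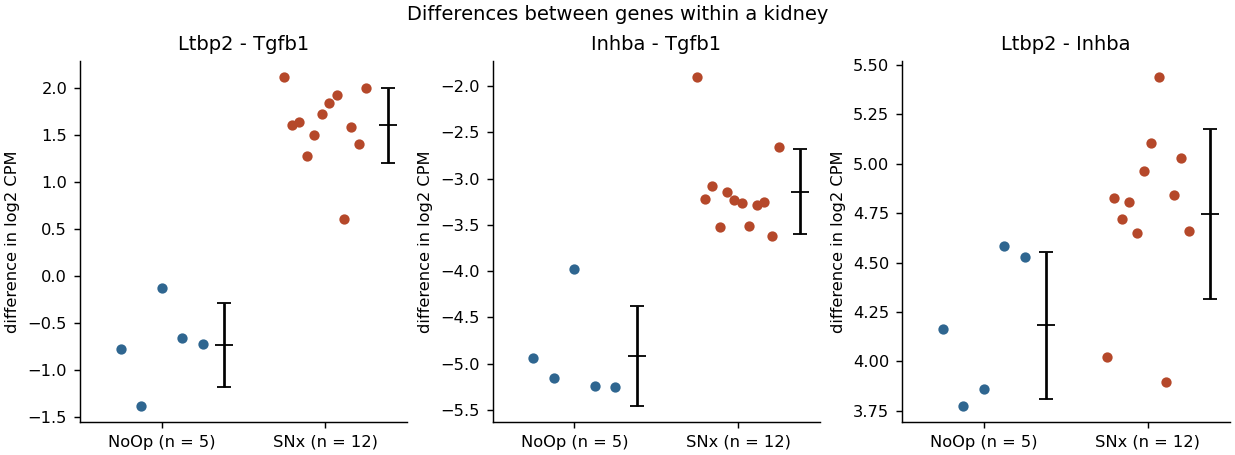
Difference in log2 CPM between 2 genes in the same library (vertical axis), for 5 NoOp and 12 SNx libraries with mean and SD. The groups are apart for Ltbp2 less Tgfb1 and Inhba less Tgfb1, and overlap for Ltbp2 less Inhba.

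The 3 genes varied together over the 12 SNx kidneys, but between them only Tgfb1 with Inhba passed without SNx 1 alone. Values in parentheses after a coefficient are permutation p-values adjusted over the 9 relations. SNx 1 and SNx 5 had the highest and second highest level of all 3 genes. At the other end, SNx 4, SNx 8 and SNx 11 had the 3 lowest levels of both Tgfb1 and Inhba, and SNx 9, SNx 11 and SNx 4 those of Ltbp2. Over the 12 SNx libraries Tgfb1 and Inhba correlated most closely, with Pearson's r = 0.91 (adjusted permutation p = 0.00018 over 9 relations) and Spearman's rho = 0.83 (0.00936). Without SNx 1, r was 0.88, and without the 2 libraries farthest from the median 0.82. Only 0.324% of tested genes had so high an r with the same partner. Inhba and Ltbp2 gave r = 0.83 (adjusted permutation p = 0.00384) and rho = 0.81 (0.00936). Without SNx 1 their r was 0.67 with an adjusted permutation p of 0.0649, which missed the threshold. Tgfb1 and Ltbp2 gave r = 0.74 (adjusted permutation p = 0.00912) and rho = 0.69 (0.0349). Their r without SNx 1 was 0.55 (0.118), and 10.1% of tested genes correlated with Ltbp2 at least as closely as Tgfb1 did. Both relations with Ltbp2 passed without SNx 1 and SNx 9 together, the libraries farthest from the median of Ltbp2. There r was 0.89 for Inhba (adjusted permutation p = 0.00153) and 0.80 for Tgfb1 (0.0103).

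Col3a1 and Slc3a1 were the reference genes for fibrosis and for the proximal tubule. Col3a1 (ENSRNOG00000003357) encodes the alpha chain of type III collagen and was upregulated in SNx by 2.74 on the log2 scale (SE 0.39, adjusted p = 2.84e-05, edgeR). Slc3a1 (ENSRNOG00000007006) encodes the heavy subunit of the cystine and dibasic amino acid transporter of the proximal tubule and decreased by 1.73 on the log2 scale (SE 0.46, adjusted p = 0.00443, edgeR). Among SNx kidneys Col3a1 ranged from 8.62 (SNx 8) to 11.52 log2 CPM (SNx 1) and Slc3a1 from 7.25 (SNx 1) to 11.22 log2 CPM (SNx 11). SNx 1 lay 1.47 above the next library in Col3a1 and 0.85 below the next in Slc3a1. Between Col3a1 and Slc3a1 themselves r was −0.50 over the 12 libraries (permutation p = 0.0927) and 0.01 without SNx 1.

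With Col3a1 the correlations of all 3 genes were positive and weakened when SNx 1 was left out. That of Inhba was the closest, with r = 0.86 (adjusted permutation p = 0.00589) and rho = 0.67 (0.0380), and 0.596% of tested genes had so high an r with Col3a1. Ltbp2 gave r = 0.72 (adjusted permutation p = 0.0165), rho = 0.64 (0.0429) and a share of 3.43%, and Tgfb1 gave r = 0.67 (adjusted permutation p = 0.0180), rho = 0.41 (0.186) and a share of 4.58%. Without SNx 1 none of the 3 passed. The values were then 0.59 for Inhba (adjusted permutation p = 0.102), 0.40 for Ltbp2 (0.260) and 0.36 for Tgfb1 (0.275). Without the 2 libraries farthest from the median Col3a1 level, SNx 1 and SNx 8, r was 0.47, 0.64 and 0.14 in the same order. The correlation of Tgfb1 with Col3a1 also missed the threshold without SNx 8 alone (0.62, adjusted permutation p = 0.0524). Without SNx 8 alone Inhba (0.86, 0.00884) and Ltbp2 (0.81, 0.00405) still passed. All 3 relations therefore missed the threshold without SNx 1, and that of Tgfb1 also without SNx 8, where r moved only from 0.67 to 0.62. Leaving out a library also lowers the number of libraries, and the part of this was not tested.

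With Slc3a1 all 3 correlations were negative. Ltbp2 gave r = −0.86 (adjusted permutation p = 0.00099) and rho = −0.75 (0.0210), Tgfb1 r = −0.76 (adjusted permutation p = 0.00589) and rho = −0.60 (0.0558), and Inhba r = −0.74 (adjusted permutation p = 0.00589) and rho = −0.53 (0.0876). Such values were common, since 7.82%, 14.7% and 16% of tested genes had an r with Slc3a1 at least as low. The 3 kidneys with the most Slc3a1, SNx 11, SNx 4 and SNx 9, were those with the least Ltbp2. Ltbp2 was the only one of the 3 genes whose relation passed without SNx 1 (r = −0.76, adjusted permutation p = 0.0349), against −0.61 (0.0971) for Tgfb1 and −0.53 (0.118) for Inhba. Whether the 3 relations differ from each other was not tested. Without both SNx 1 and SNx 5, the libraries farthest from the median of Slc3a1, r was −0.70 for Ltbp2 (adjusted permutation p = 0.0610), −0.36 for Tgfb1 and −0.34 for Inhba, and none of the 3 passed the threshold.

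Within the ranges of library number the relations were closer in the lower range, which holds SNx 1 and SNx 5. With Col3a1, r in the lower and the upper range was 0.92 and 0.59 for Inhba, 0.83 and 0.35 for Ltbp2, and 0.73 and 0.28 for Tgfb1. With Slc3a1 it was −0.91 and −0.71 for Ltbp2, −0.92 and −0.26 for Tgfb1, and −0.87 and −0.23 for Inhba. Between the genes it was 0.93 and 0.80 for Tgfb1 with Inhba, 0.97 and 0.40 for Inhba with Ltbp2, and 0.95 and 0.051 for Tgfb1 with Ltbp2. None of the 9 relations passed in the 6 libraries of the upper range. The signs were the same in both ranges. The r of 0.051 for Tgfb1 with Ltbp2 includes SNx 9, which had the lowest Ltbp2 of the SNx kidneys (7.0 log2 CPM). Its Tgfb1 was the highest of the upper range (6.39 log2 CPM). With SNx 9 left out, r of this pair over the remaining SNx libraries of both ranges was 0.89. The upper range without SNx 9 was not tested.

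**Figure D3:**
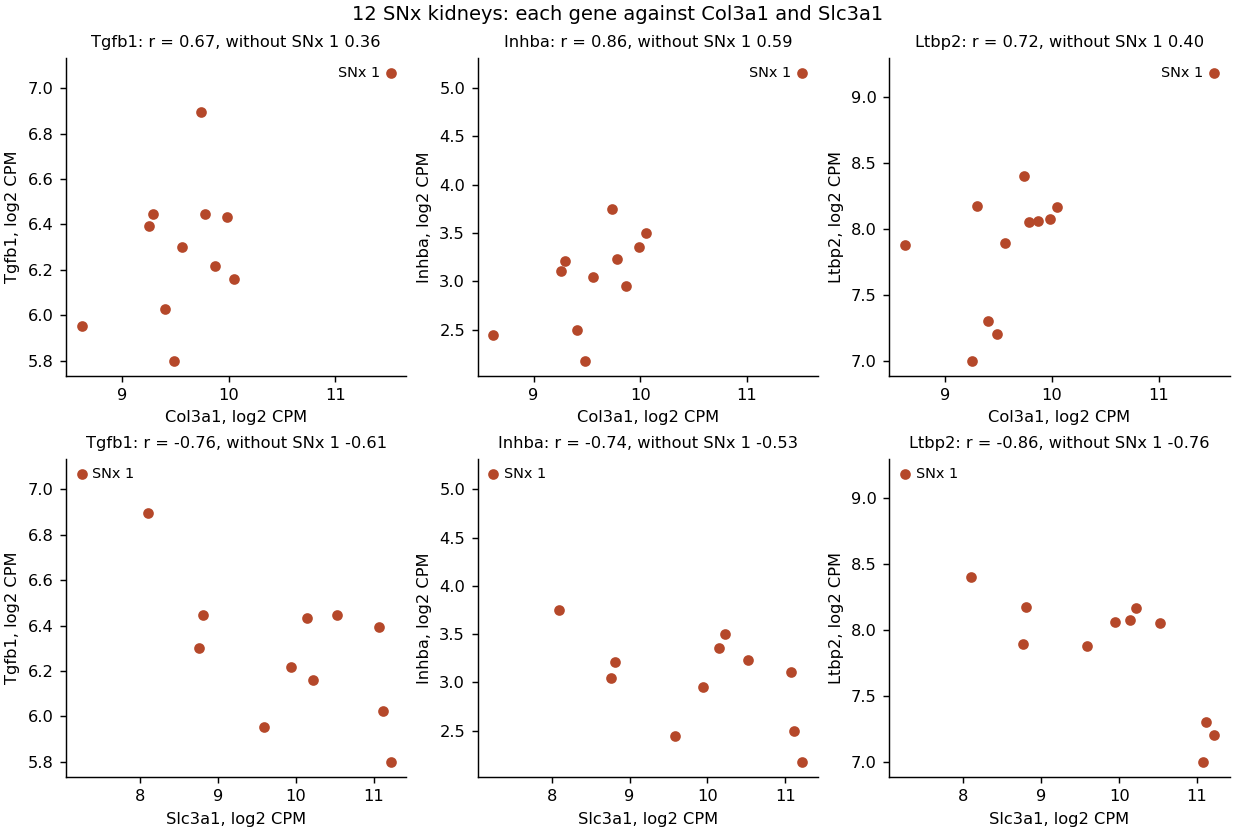
Level of each gene (log2 CPM, vertical axis) against Col3a1 (upper row) and Slc3a1 (lower row) in the 12 SNx libraries, 1 point per library. SNx 1 lies apart at the high end of Col3a1 and is at the low end of Slc3a1, and r falls from 0.86 to 0.59 for Inhba with Col3a1 when it is left out.

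**Figure D4:**
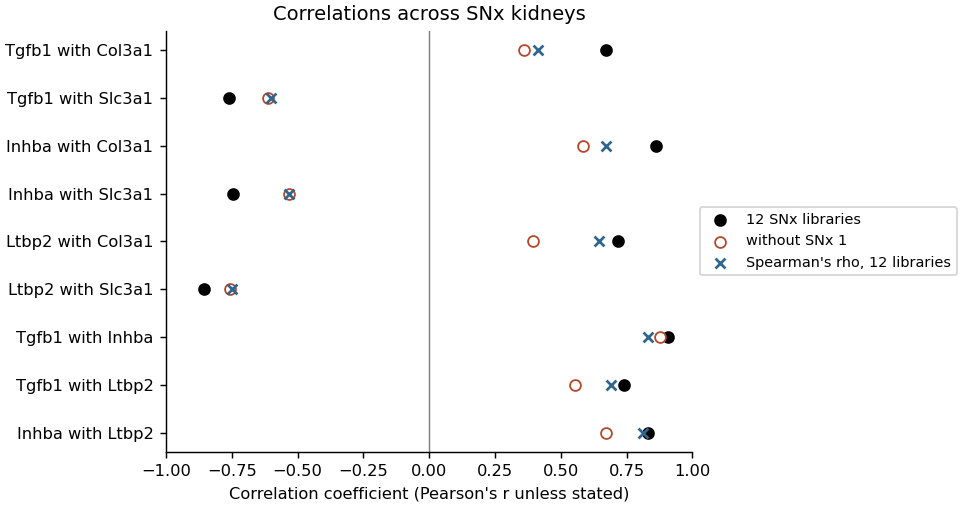
Pearson's r over 12 SNx libraries (filled points), r without SNx 1 (open points) and Spearman's rho (crosses) for the 9 relations. Tgfb1 with Inhba changes least, from 0.91 to 0.88, and the relations with Col3a1 change most when SNx 1 is left out.

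The genes most like each member over the 12 SNx libraries were sought among the 13184 genes that averaged 1 log2 CPM or more, of which 1897 have a symbol. These values are a description of the same 12 libraries. Tgfb1 went most closely with Galns, a lysosomal sulfatase gene (r = 0.94), Impdh2, an enzyme of guanine nucleotide synthesis (0.94), and Tnfrsf1a, the type 1 TNF receptor (0.92), and against Neurl4 (−0.93) and Rhpn1 (−0.89). Inhba went with Cfp, the gene of the complement protein properdin (r = 0.97), Pik3r5, a regulatory subunit of phosphoinositide 3-kinase gamma (0.96), and Dpysl3 (0.96), and against Emx1 (−0.96) and Fam81a (−0.91). Ltbp2 went with Slc17a9, a vesicular nucleotide transporter gene (r = 0.98), Pxdn, encoding a peroxidase that crosslinks collagen IV (0.96), and Plscr3 (0.95), and against Fmo5 (−0.97) and Cdip1 (−0.94). Over all 13184 genes, at most 7 had a higher r than a positive partner named here and at most 40 a lower r than a negative one. Without SNx 1 the positive values stayed between 0.88 and 0.96. An r of 0.80 or more was found for 276 genes with Tgfb1, 359 with Inhba and 678 with Ltbp2.

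Other genes of the pathway were taken from lists by role. Since their symbols come from the same supplementary table, a list's direction is not independent evidence. Of the 2003 named genes tested 1070 (53.4%) were upregulated and 812 downregulated, and the median change over them was 0.49 on the log2 scale. The counts in each list below are to be read beside these shares. Of 104 genes in the pathway lists 32 had an identifier, and 30 of these were upregulated, 1 downregulated and 1 not called, with a median of 1.76. Without the 3 members it was 27, 1 and 1 of 29, with a median of 1.65. The counts were the same with RLE scaling and without SNx 1, and 31 up and 1 down with library totals alone. All 10 receptor and 8 SMAD genes listed lacked an identifier and were not analysed here. In the lists below, the value after each SE is the adjusted p of edgeR over all tested genes.

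Among the ligands, Tgfb2 and Inhbb rose beside Tgfb1 and Inhba, which made 4 of 4 named genes of 13 listed. Tgfb2 encodes the second TGF-beta isoform, and was at 2.14 to 3.18 log2 CPM in NoOp and 3.54 to 6.10 in SNx, with a log2 fold change of 2.13 (SE 0.39, adjusted p = 0.000262, edgeR). Inhbb, the gene of the activin beta B subunit, rose by 1.43 (SE 0.21, adjusted p = 4.24e-05), from 2.34 to 3.45 log2 CPM in NoOp to 3.60 to 4.99 in SNx. Neither gene's groups overlapped, and 41.9% of the tested genes with a symbol likewise had every SNx library above every NoOp library.

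In the latency and activation list all 5 named genes of 21 rose. Besides Ltbp2 these were Mmp2 and Mmp14, matrix metalloproteinases that can release latent TGF-beta, with log2 fold changes of 2.26 (SE 0.33, adjusted p = 3.68e-05, edgeR) and 1.65 (SE 0.25, 5.73e-05). Nrros, which tethers latent TGF-beta to the surface of macrophages and microglia, rose by 1.23 (SE 0.14, 2.55e-06). Emilin1, a microfibril protein that restrains TGF-beta maturation, rose by 1.06 (SE 0.14, 1.23e-05). Ltbp2 is counted in this list although, as stated above, it does not itself bind latent TGF-beta.

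Genes of inhibitors rose as well, in 5 of 5 named of 17 listed. Fstl3, an activin-binding follistatin-like protein, rose by 1.97 (SE 0.30, adjusted p = 6.06e-05, edgeR), and the transcriptional corepressors Tgif1 and Tgif2 by 1.87 (SE 0.32, 0.000162) and 1.29 (SE 0.15, 4.71e-06). Bgn, the proteoglycan biglycan, which can bind TGF-beta, rose by 1.32 (SE 0.21, 8.04e-05). Pmepa1, a negative feedback regulator of SMAD signalling, was the fifth at 0.51 (SE 0.18, 0.0219), and its groups overlapped.

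Of the target genes 15 of 25 were named, and 13 rose, with a median log2 fold change of 2.56. Those with the smallest p were Timp1, an inhibitor of metalloproteinases (2.93, SE 0.31, adjusted p = 2.01e-06, edgeR), the matrix protein gene Tnc (3.03, SE 0.37, 7.39e-06), the cell cycle inhibitor gene Cdkn2b (3.33, SE 0.45, 1.68e-05) and Col3a1. Tgfbi and Sphk1 are named after their values were seen, as the genes not called higher. Tgfbi, whose name comes from its induction by TGF-beta in cultured cells, encodes a matrix adhesion protein. It was at 6.31 to 6.72 log2 CPM in NoOp and 5.03 to 6.22 in SNx, so that every SNx library lay below every NoOp library, which held for 9.60% of tested genes. Its log2 fold change was −0.95 (SE 0.19, adjusted p = 0.000627, edgeR), −0.97 with RLE scaling, −0.75 with library totals alone and −1.02 without SNx 1. Sphk1, encoding a sphingosine kinase, changed by 0.40 (adjusted p = 0.0667, edgeR), which missed the threshold, and by 0.61 with library totals alone, where it passed (0.0152).

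The elastic fibre list, in which Ltbp2 also belongs, had 6 named genes of 15 and all rose, with every SNx library above every NoOp library in each. The same held for 13.5% of all tested genes and for 839 of the 2003 tested genes with a symbol (41.9%), from which these members come. Efemp2, a fibulin needed for elastic fibre assembly, rose by 1.52 (SE 0.18, adjusted p = 6.35e-06, edgeR), and the crosslinking enzymes Loxl1 and Lox by 1.41 (SE 0.23, 0.000117) and 1.92 (SE 0.32, 0.00014). Emilin1 is given above, and Eln, elastin itself, rose by 1.26 (SE 0.29, 0.00146). The log2 fold change of Ltbp2, at 3.99, was the largest in this list and in the latency list, and that of Inhba, at 3.62, the largest among the ligands.

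**Figure D5:**
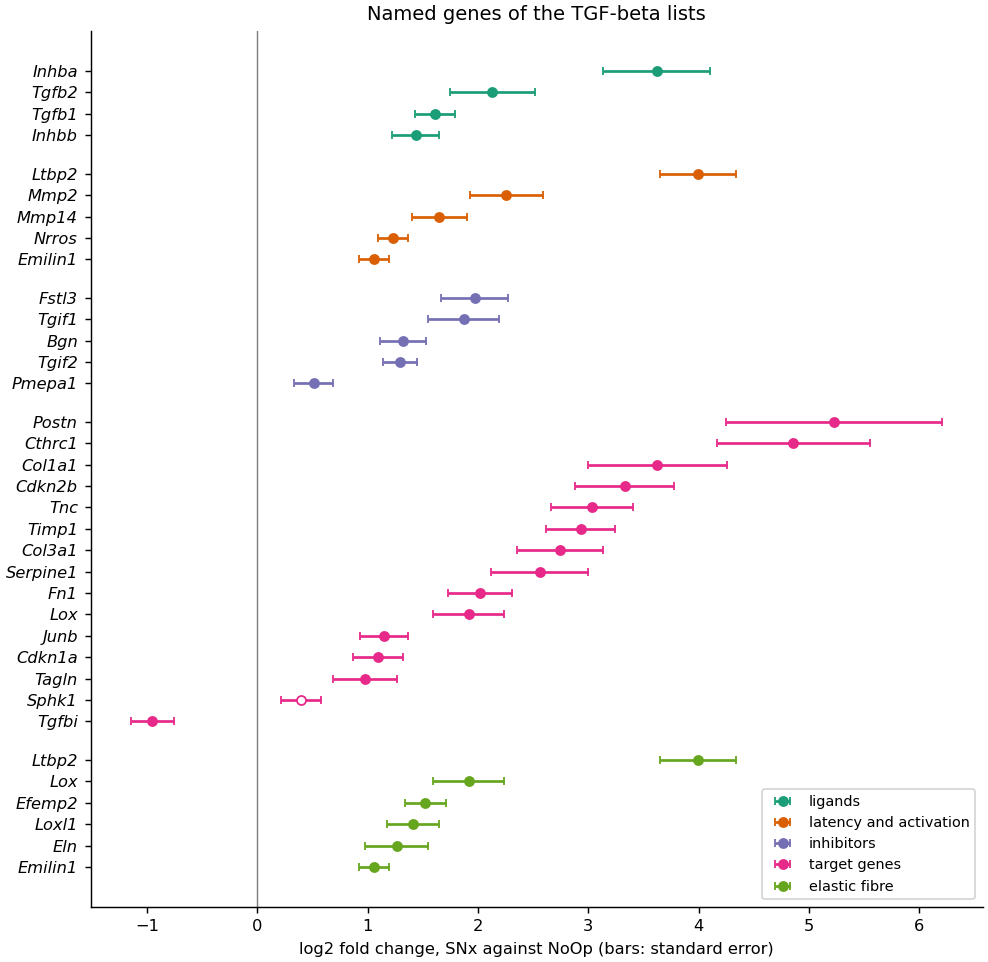
Log2 fold change of SNx against NoOp (horizontal axis, bars are SE) for the named genes of each list, coloured by list, with filled points for genes past FDR < 0.05. Ltbp2, Lox and Emilin1 stand in 2 lists each. Tgfbi, at −0.95, is the gene left of 0, and Sphk1, at 0.40, the open point.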

How the data were processed

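Bulk RNA-seq of kidney was analysed from 12 SNx and 5 NoOp libraries, grouped by the treatment label, 1 library per sample. Separate animals are not stated in the labels, so that p-values measure the spread between these libraries. Per the study's methods and the submitters' processing notes, paired-end reads were quantified against the Rn6 transcriptome (Salmon is named, with no version) and summarised to genes with tximport. The authors deposited estimated counts per gene, length-scaled by the methods and already whole numbers, and for 13318 genes log2 values after the limma voom transformation. The deposited log2 values were used as an alternative only. The methods report that RNA integrity varied widely between samples, but no value per library was used here. The labels name polyA RNA, whereas the protocol describes ribosomal depletion. A further 34 columns of whole-series tables repeated the libraries and were not used.

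Counts were filtered with filterByExpr, scaled with TMM and tested with the quasi-likelihood test of edgeR 4.0.16 in R 4.3.3, two-sided, and p-values over 15438 genes were adjusted by Benjamini-Hochberg (FDR < 0.05). The F statistic and the fold change gave the standard error. A fold change compares mean counts and is pulled further by a library with a high count than a mean of log2 CPM is. The script was tested on simulated counts. Correlations used log2 CPM and 100000 two-sided permutations with adjustment over 9 relations. Pairs of genes were compared with exact permutation tests over 6188 splits. Other settings tried were limma-voom (limma 3.58.1), DESeq2 1.42.0, the deposited log2 values, robust dispersions, library totals alone or RLE factors for scaling, no filter on counts or a minimum of 10 counts per library, a prior count of 0.5, a change of 1.5-fold, each library left out, and each range of library numbers alone.

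Symbols were available for 2007 identifiers, from a supplementary table of the study. Promoter sequences are from RefSeq (GRCr8), and all 3 genes matched by symbol. Figures were drawn with matplotlib 3.10.9. Members and lists were chosen with earlier results of these data known. Named genes are the 3 members, Col3a1, Slc3a1, up to 4 others of each list by p, and for each member the 3 named genes with the highest and the 2 with the lowest r.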

Additional observations from a re-analysis of the deposited data

How the results depend on the processing

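The log2 fold changes of Tgfb1, Inhba and Ltbp2 passed the threshold in the same direction under each of the 27 alternatives, with a range of 1.53 to 1.66, 3.28 to 3.86 and 3.83 to 4.09 when single libraries were left out. Genes called ranged from 7914 to 9438 and pathway genes called from 30 to 32 in those fits, and 5165 genes were called with a change of at least 1.5-fold beside the FDR. Scaling by library totals alone raised the share of calls that were higher in SNx from 52.2% to 74.6%.

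Tgfb1 with Inhba and Ltbp2 with Slc3a1 passed whichever single SNx library was left out, and the other 7 relations missed the threshold without SNx 1. With 1 SNx library left out, r was 0.36 to 0.76 for Tgfb1 with Col3a1, −0.82 to −0.61 for Tgfb1 with Slc3a1, 0.59 to 0.91 for Inhba with Col3a1, −0.80 to −0.53 for Inhba with Slc3a1, 0.40 to 0.81 for Ltbp2 with Col3a1, −0.89 to −0.76 for Ltbp2 with Slc3a1, 0.88 to 0.95 for Tgfb1 with Inhba, 0.55 to 0.89 for Tgfb1 with Ltbp2 and 0.67 to 0.95 for Inhba with Ltbp2. By Spearman's rho, Tgfb1 with Col3a1 (0.41), Tgfb1 with Slc3a1 (−0.60) and Inhba with Slc3a1 (−0.53) missed the threshold. Without the 2 libraries farthest from the median, those with Col3a1 (0.14 for Tgfb1, 0.47 for Inhba, 0.64 for Ltbp2) and with Slc3a1 (−0.36, −0.34 and −0.70) did. In the lower range of library numbers Tgfb1 with Col3a1 (0.73) and Ltbp2 with Col3a1 (0.83) missed it, and in the upper range all 9 did, at 0.28, 0.59 and 0.35 with Col3a1 and −0.26, −0.23 and −0.71 with Slc3a1 for Tgfb1, Inhba and Ltbp2, 0.80 for Tgfb1 with Inhba, 0.051 for Tgfb1 with Ltbp2 and 0.40 for Inhba with Ltbp2. The settings that left out libraries or took 1 range held fewer libraries, whereas Spearman's rho used all 12. Why relations missed the threshold was not tested.

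The larger change of Ltbp2 than of Inhba missed the threshold with a prior count of 0.5 (0.48) and in the lower range (0.48), and was 0.46 to 0.66 with single libraries left out. The other pairs passed throughout, at 2.18 to 2.49 for Ltbp2 less Tgfb1 and 1.66 to 2.01 for Inhba less Tgfb1. No paired analysis was possible because the labels carry no replicate numbers that tie an SNx library to a NoOp library. Depth limits Inhba most, with 17 to 46 counts per NoOp library.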

Other observations

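Over the 12 SNx libraries the levels of the 3 genes were also set against sequencing depth (log2 of the total count). Pearson's r was −0.23 for Tgfb1, −0.30 for Inhba and −0.55 for Ltbp2, and Spearman's rho −0.17, −0.10 and −0.43. None passed a permutation test (adjusted p = 0.479, 0.479 and 0.195 over 3 relations). Without SNx 1 the values of r were 0.02, 0.03 and −0.41, and without the 2 libraries farthest from the median depth −0.41, −0.44 and −0.50. The share of depth in the relations between the genes was not tested.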
